A study of Mus musculus with 6 samples.

Results

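The 10 genes described here encode enzymes and a chaperone that add or remove ubiquitin and acetyl groups on FOXP3, the transcription factor that defines regulatory T (Treg) cells. They are *Stub1*, *Rnf31*, *Hspa8*, *Usp7*, *Usp21*, *Ep300*, *Kat5*, *Hdac7*, *Hdac9* and *Sirt1*, and they were picked by gene symbol from a table of 24420 genes, where each of them was found. RNA sequencing was performed on YFP+ Treg cells from lymph nodes of female C57BL/6 mice, with 3 samples of genotype *Foxp3*YFP-Cre/wt *Ogt*wt/fl (OGT-sufficient) and 3 of genotype *Foxp3*YFP-Cre/wt *Ogt*fl/fl (OGT-deficient). OGT is the enzyme that attaches O-GlcNAc, a single sugar, to serines and threonines of intracellular proteins. All 6 samples therefore carried the Cre allele and at least 1 floxed *Ogt* allele, and the labels give no treatment or age for either group. The methods of the study give a general age range for mice other than its young knockout males and their controls, without naming these samples. Its methods for the RNA sequencing name no tissue, and its general Treg purification used both lymph nodes and spleen. The Cre is driven by *Foxp3* on 1 X chromosome, so random X inactivation leaves these females with Treg cells that lack Cre, which the YFP sort leaves out. The labels do not say whether a sample is 1 mouse, so the p-values rest on the spread between these samples, which may not be that between mice.

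FOXP3 protein turns over quickly, and its lysines can carry either ubiquitin or an acetyl group. STUB1, a ubiquitin ligase that works with HSP70-type chaperones, marks FOXP3 for the proteasome, whereas the deubiquitinases USP7 and USP21 remove ubiquitin and keep it. The acetyltransferases p300 (*Ep300*) and TIP60 (*Kat5*) acetylate FOXP3, which favours its stability and DNA binding, and SIRT1 removes the acetyl groups, while HDAC7 and HDAC9 are found in complexes with FOXP3. The comparison asks whether the transcripts of this machinery differ between Treg cells with and without OGT. RNA counts say nothing of the amount or activity of the proteins, or of FOXP3 modification itself.

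The genes lie on 9 chromosomes, with *Ep300* and *Hdac7* on the same one (GRCm38, GENCODE M21). Their spans differ widely, from 2.9 kb for *Stub1* (chr17:25830505-25833404, minus strand) to 869.52 kb for *Hdac9* (chr12:34047580-34917095, minus strand). *Usp7* spans 102.71 kb (chr16:8689595-8792308, minus strand), *Sirt1* 62.7 kb (chr10:63319005-63381704, minus strand) and *Ep300* 66.73 kb (chr15:81585351-81652077, plus strand). The others are *Hdac7* (chr15:97792664-97844502, minus strand), *Rnf31* (chr14:55591708-55603693, plus strand), *Hspa8* (chr9:40800984-40810087, plus strand), *Kat5* (chr19:5603014-5610237, minus strand) and *Usp21* (chr1:171281945-171287991, minus strand). RefSeq promoters of build GRCm38.p6 were at hand for 9 of the 10 genes, 14 promoters in all, and each was read as the 250 bases before a transcription start. Their median GC content was 61.6%, against 52.4% over all 32851 promoters of that table, and their median number of CpG dinucleotides was 18 against 6. The promoters of 4 genes are shown because they span the range of the set: *Stub1* and *Usp7* for the ligase and deubiquitinase that act on FOXP3 in opposite directions, *Hdac9* for the most variable member, and *Hdac7* for the 1 of its 4 promoters with the most STAT-type and forkhead-type words, chosen for them. Each is written 5′ to 3′ on the strand of the gene in lower case, with capitals marking 6 short words that were searched on either strand, overlapping matches included. These were GGGCGG, the GC box bound by SP-family factors, and CCGGAAG, which is typical of sites for ETS factors. The CCAAT box was searched as well, and TTCNNNGAA stood for STAT-type sites. The forkhead-type word was GTAAACA, a sequence bound by forkhead factors, and the E-box searched was CACGTG.
*Stub1* (chr17:25832920-25833169, minus strand): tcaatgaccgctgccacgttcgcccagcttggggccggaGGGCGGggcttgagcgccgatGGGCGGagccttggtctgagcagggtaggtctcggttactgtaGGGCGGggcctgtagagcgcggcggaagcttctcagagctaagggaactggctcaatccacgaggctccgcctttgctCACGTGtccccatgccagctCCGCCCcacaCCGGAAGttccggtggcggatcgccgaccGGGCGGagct
*Usp7* (chr16:8738343-8738592, minus strand): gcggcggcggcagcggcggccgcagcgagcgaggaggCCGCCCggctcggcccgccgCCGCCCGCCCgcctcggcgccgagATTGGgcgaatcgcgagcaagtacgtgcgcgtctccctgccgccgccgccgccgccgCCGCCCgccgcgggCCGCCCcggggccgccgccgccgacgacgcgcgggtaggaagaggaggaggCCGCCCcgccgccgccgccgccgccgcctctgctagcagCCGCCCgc
*Hdac9* (chr12:34917096-34917345, minus strand): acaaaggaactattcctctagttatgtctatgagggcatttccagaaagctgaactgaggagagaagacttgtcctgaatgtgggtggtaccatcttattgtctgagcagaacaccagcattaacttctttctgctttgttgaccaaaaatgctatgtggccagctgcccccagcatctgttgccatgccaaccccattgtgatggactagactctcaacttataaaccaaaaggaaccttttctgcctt
*Hdac7* (chr15:97831768-97832017, minus strand): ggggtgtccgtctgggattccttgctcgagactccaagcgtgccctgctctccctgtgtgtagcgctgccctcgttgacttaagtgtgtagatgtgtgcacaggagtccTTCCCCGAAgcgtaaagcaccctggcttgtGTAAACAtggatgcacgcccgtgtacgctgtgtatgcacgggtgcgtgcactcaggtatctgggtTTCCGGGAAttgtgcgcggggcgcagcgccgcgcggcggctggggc
The *Usp7* promoter was 85.2% GC with 55 CpG dinucleotides and 7 GC boxes, and that of *Stub1* was 67.2% GC with 24 CpG dinucleotides and 5 GC boxes. The *Hdac9* promoter shown was 44.4% GC, with 0 CpG dinucleotides and none of the 6 words. A GC box was present in 8 of the 14 promoters, 1 for each of the 9 genes but *Hdac9*, and in 32.7% of all promoters. Of 4 *Hdac7* promoters in the table, the one shown held 2 STAT-type words and the only forkhead-type word, another held 1 STAT-type word, and the other two held neither. A STAT-type word is found in 7.02% and the forkhead-type word in 3.17% of all promoters. *Stub1*, *Kat5* and *Sirt1* each had a promoter with an E-box, found in 6.02% of all promoters, an ETS-type word was found for *Stub1* and *Rnf31* (6.91% of all), and a CCAAT word for *Usp7*, *Rnf31* and *Kat5* (33.8%). These matches are words in the sequence and no measurement of binding.

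The total count per sample was between 3375454 and 4103552, of which the ribosomal RNA gene *Rn45s* took 24.2% to 37.1%, and the 10 genes together received 4708 to 5583 counts. OGT-sufficient replicate 3 stood apart from the rest: 18346 genes had a count there, against 14412 to 15197 in the other 5 samples. It also had the lowest summed level of 10 Treg cell markers, 2469 CPM (counts per 1000000 of the TMM-scaled library size) against 3300.4 to 3781 CPM elsewhere, and the highest of 5 erythroid markers, 846 CPM against 217 to 480 CPM. Each of the 10 Treg markers had counts in every sample, and the summed level of 7 CD8 and NK cell markers was at most 41.7 CPM, with *Ncr1* and *Klrb1c* at 0 in at least 1 sample. The summed level of 14 macrophage markers ranged from 2209 to 4744 CPM in OGT-sufficient and from 1806 to 6588 CPM in OGT-deficient samples. That of 10 B-cell markers ranged from 390 to 819 CPM and from 422 to 625 CPM, and each macrophage and B-cell marker had counts in every sample. Of the tested markers, 13 of 14 macrophage and 9 of 10 Treg markers were higher in OGT-deficient samples. By contrast, 9 of 10 B-cell, 5 of 5 erythroid and 4 of 5 CD8 and NK cell markers were lower there. None of these markers had an adjusted p under 0.1 in edgeR's quasi-likelihood test. The part of these cell types in the values below was not tested beyond the settings named. *Ogt*, the targeted gene, had 150, 170 and 251 CPM in OGT-sufficient and 84.0, 67.0 and 96.0 CPM in OGT-deficient replicates 1, 2 and 3. The groups did not overlap, and the log2 fold change, OGT-deficient over OGT-sufficient throughout, was -1.21, with a standard error (SE) of 0.21. Its adjusted p was 0.191 in edgeR's quasi-likelihood test, which did not pass the threshold of 0.1.

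Transcripts of the 10 genes did not differ between the genotypes beyond the spread between samples. After Benjamini-Hochberg adjustment over the 10949 genes tested, 0 of the 10 passed a false discovery rate (FDR) of 0.1 in edgeR's quasi-likelihood test, where 3 genes or 0.0274% of all tested did. At an unadjusted p under 0.05 the count was also 0 of 10, against 777 genes or 7.1% of all tested, and DESeq2 and edgeR's exact test likewise gave 0. The samples of the 2 groups overlapped in all 10, while 13.2% of tested genes had groups without overlap. All 10 passed the filter on low counts. Of the 10 log2 fold changes 5 were below 0 and 5 above, with a median of -0.02 beside -0.02 over all tested genes, and 52.7% of all tested genes were below 0. The 95% intervals bound how large a difference could have been missed: all 10 lay within a 2-fold change in either direction, and 7 lay within 1.5-fold, the exceptions being *Usp21*, *Hdac9* and *Sirt1*. Over all tested genes these shares were 77.8% and 42.6%. Over the 126 tested genes of related families and complexes, described below, they were 94.4% and 69.8%, so narrow intervals are not particular to the 10.

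**Figure D1:**
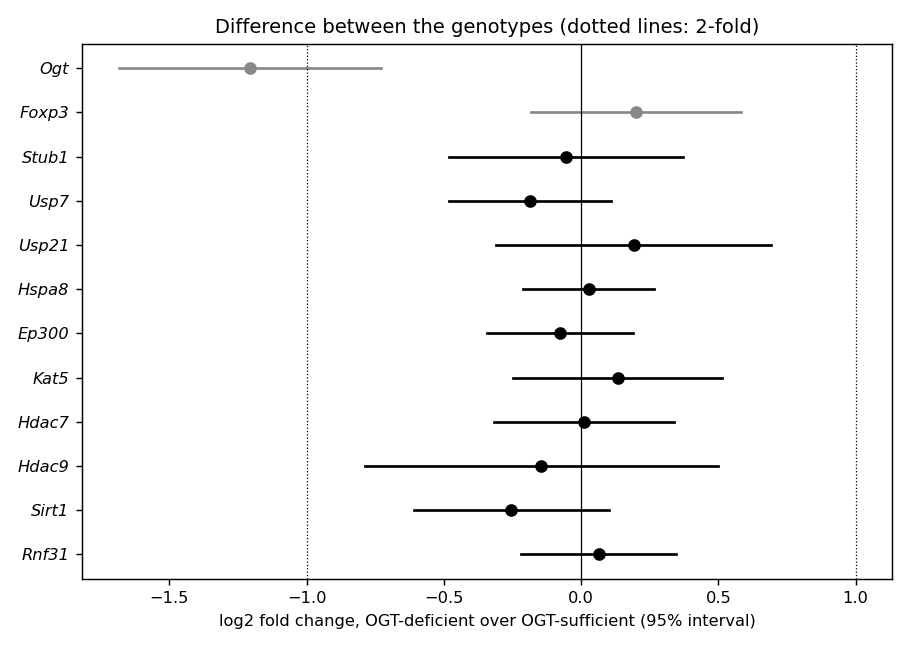
Log2 fold change (horizontal axis, OGT-deficient over OGT-sufficient) with its 95% interval for *Ogt* and *Foxp3* in grey and the 10 regulators in black, with dotted lines at a 2-fold change. The intervals of all 10 regulators cross 0 and end inside the dotted lines, whereas that of *Ogt* runs from -1.68 to -0.73.

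*Stub1* encodes the ligase CHIP, which joins a U-box to a chaperone-binding domain. It had 15.7, 12.9 and 17.6 CPM in OGT-sufficient replicates 1, 2 and 3, and 14.1, 14.9 and 15.4 CPM in OGT-deficient replicates 1, 2 and 3. The OGT-deficient samples all lay between the lowest and the highest OGT-sufficient sample. The genotypes differed by -0.06 on the log2 scale (SE 0.19, adjusted p = 0.958), with a 95% interval of 0.716-fold to 1.29-fold. With 48 to 67 counts per sample, *Stub1* was one of the least sampled members, and its spread between samples of a genotype, a coefficient of variation (CV) of 11.5%, was no larger than the 13.1% that counting alone gives. *Stub1* shares 1084 exon bases with *Jmjd8* on the opposite strand, and no strand setting is stated for the counting. *Jmjd8* itself had 32 to 52 counts per sample and a log2 fold change of 0.08.

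*Rnf31* encodes HOIP, the catalytic subunit of the linear ubiquitin chain assembly complex. It was among the steadiest of the 10, at 49.5, 43.5 and 50.9 CPM in OGT-sufficient and 52.4, 47.1 and 50.9 CPM in OGT-deficient replicates 1, 2 and 3. Their difference on the log2 scale was 0.06 (SE 0.12, adjusted p = 0.926), with an interval of 0.860-fold to 1.27-fold. The CV within a genotype was 6.91%, and counting alone gives 7.29%. The other subunits of its complex, named after their values were seen, were *Sharpin* with 22.7 ± 0.568 and 26.7 ± 1.75 CPM and *Rbck1* with 73.1 ± 7.98 and 66.9 ± 4.77 CPM in OGT-sufficient and OGT-deficient cells (SD, n = 3 each). *Rnf31* shares 123 exon bases with *Irf9* on the same strand, so reads from that stretch could belong to either. *Irf9*, a subunit of the interferon-stimulated factor ISGF3, had 102 ± 6.03 CPM in OGT-sufficient and 130.4 ± 14.2 CPM in OGT-deficient cells (SD, n = 3 each), with a log2 fold change of 0.36 (SE 0.12, adjusted p = 0.565) without overlap between the groups.

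*Hspa8* encodes HSC70, the constitutive HSP70 chaperone that hands client proteins to STUB1. Its levels were 416, 452 and 443 CPM in OGT-sufficient and 465, 445 and 426 CPM in OGT-deficient replicates 1, 2 and 3. The highest sample and the lowest sample were close to each other, and the groups overlapped. It was the most abundant and the least variable member, with a CV within a genotype of 4.38%. The log2 fold change of 0.03 (SE 0.11, adjusted p = 0.964) had the narrowest interval of the 10, from 0.863-fold to 1.20-fold. Reads shared with pseudogenes of *Hspa8* could add to or take from these counts, since their handling is not stated in the sources used here.

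*Usp7* and *Usp21* encode the deubiquitinases of FOXP3. *Usp7* was at 255, 273 and 334 CPM in OGT-sufficient and 260, 235 and 262 CPM in OGT-deficient replicates 1, 2 and 3. Only OGT-sufficient replicate 3 lay well above the rest, and the lowest OGT-sufficient sample was below 2 of the OGT-deficient ones. The group means differed by -0.19 on the log2 scale (SE 0.13, adjusted p = 0.785), with an interval of 0.716-fold to 1.08-fold, and without OGT-sufficient replicate 3 it was -0.06 (SE 0.11). *Usp21* was far lower, at 15.4, 16.4 and 11.8 CPM in OGT-sufficient and 12.8, 18.9 and 18.0 CPM in OGT-deficient replicates 1, 2 and 3. The 3 lowest samples came from both genotypes. Its log2 fold change was 0.19 (SE 0.22, adjusted p = 0.881), with an interval of 0.807-fold to 1.61-fold, and without OGT-sufficient replicate 3 it was 0.07 (SE 0.22). The 45 to 75 counts of *Usp21* per sample give a counting CV of 12.9%, beside a CV between samples of 18.5%.

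*Ep300* encodes the acetyltransferase p300, a coactivator that also acetylates histones. Its levels were 303, 334 and 375 CPM in OGT-sufficient and 317, 309.9 and 333 CPM in OGT-deficient replicates 1, 2 and 3. All 3 OGT-deficient samples lay inside the range of the OGT-sufficient samples, whose top value again came from replicate 3. The difference was -0.08 on the log2 scale (SE 0.12, adjusted p = 0.909), with an interval of 0.789-fold to 1.14-fold, and without that sample it was 0.02. *Crebbp*, which encodes the close relative CBP, had 532 ± 76.4 CPM in OGT-sufficient and 508 ± 27.1 CPM in OGT-deficient cells (SD, n = 3 each), with a log2 fold change of -0.06 (SE 0.13, adjusted p = 0.927). *Kat5* encodes TIP60, the catalytic subunit of the NuA4-type acetyltransferase complex. It was at 29.0, 27.4 and 32.0 CPM in OGT-sufficient and 38.8, 31.2 and 26.9 CPM in OGT-deficient replicates 1, 2 and 3. OGT-deficient cells held both the highest and the lowest of the 6 values. *Kat5* thus had a log2 fold change of 0.13 (SE 0.17, adjusted p = 0.897), with an interval of 0.842-fold to 1.43-fold. *Kat5* shares 426 exon bases with *Rnaseh2c* on the opposite strand, which had a log2 fold change of -0.02.

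*Hdac7* and *Hdac9* encode class IIa histone deacetylases, which have little catalytic activity of their own and work in repressor complexes. *Hdac7* was at 105, 115 and 124 CPM in OGT-sufficient and 135, 96.2 and 115 CPM in OGT-deficient replicates 1, 2 and 3. As with *Kat5*, the extremes were both OGT-deficient, in replicates 1 and 2. The groups were 0.012 apart on the log2 scale (SE 0.14, adjusted p = 0.987), with an interval of 0.803-fold to 1.26-fold. *Hdac7* shares 29 exon bases with *Slc48a1* on the opposite strand.

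*Hdac9* had 27.9, 21.2 and 25.7 CPM in OGT-sufficient and 15.4, 18.4 and 33.9 CPM in OGT-deficient replicates 1, 2 and 3. The OGT-deficient samples fell on either side of the whole OGT-sufficient range, with replicates 1 and 2 below it and replicate 3 above it. Its CV within a genotype was 31.3%, the largest of the 10, where counting gives 10.5%. The log2 fold change was -0.15 (SE 0.28, adjusted p = 0.926), with the widest interval, 0.579-fold to 1.41-fold. Without OGT-deficient replicate 3 it was -0.53 with an unadjusted p of 0.0367, and this was the one setting of 15 in which any of the 10 genes had an unadjusted p under 0.05. The summed level of macrophage markers was 4744, 4181 and 2209 CPM in OGT-sufficient and 1806, 5950.4 and 6588 CPM in OGT-deficient replicates 1, 2 and 3. The lowest and the highest sample were the same for both, and OGT-deficient replicate 2 was second highest in these markers and second lowest in *Hdac9*. With the macrophage level as a covariate the log2 fold change of *Hdac9* was -0.26 (unadjusted p = 0.324, edgeR's quasi-likelihood test). *Usp21* and these markers were both lowest in OGT-sufficient replicate 3 and OGT-deficient replicate 1, and highest in OGT-deficient replicates 2 and 3. With the same covariate the log2 fold change of *Usp21* was 0.089, beside 0.19 without it. *Kat5* and *Hdac7* ran the other way, highest in OGT-deficient replicate 1 and next in OGT-sufficient replicate 3. Their lowest values were in OGT-deficient replicate 3 for *Kat5* and replicate 2 for *Hdac7*. The covariate also moved the log2 fold change of *Kat5* from 0.13 to 0.19 and that of *Hdac7* from 0.012 to 0.062. It moved *Usp7* from -0.19 to -0.14 and *Sirt1* from -0.25 to -0.21. Whether macrophage RNA bears on any of the 10 genes was not tested.

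*Sirt1* encodes an NAD-dependent deacetylase of FOXP3. It was at 37.3, 49.1 and 49.3 CPM in OGT-sufficient and 41.6, 33.5 and 38.6 CPM in OGT-deficient replicates 1, 2 and 3. OGT-sufficient replicates 2 and 3 lay above all other samples, but OGT-sufficient replicate 1 lay below 2 of the 3 OGT-deficient ones. The log2 fold change of -0.25 (SE 0.16) was the largest of the 10 in size and had the lowest p, 0.142 unadjusted and 0.769 after adjustment. The interval ran from 0.655-fold to 1.07-fold, and without OGT-sufficient replicate 3 the log2 fold change was -0.18 (SE 0.17).

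**Figure D2:**
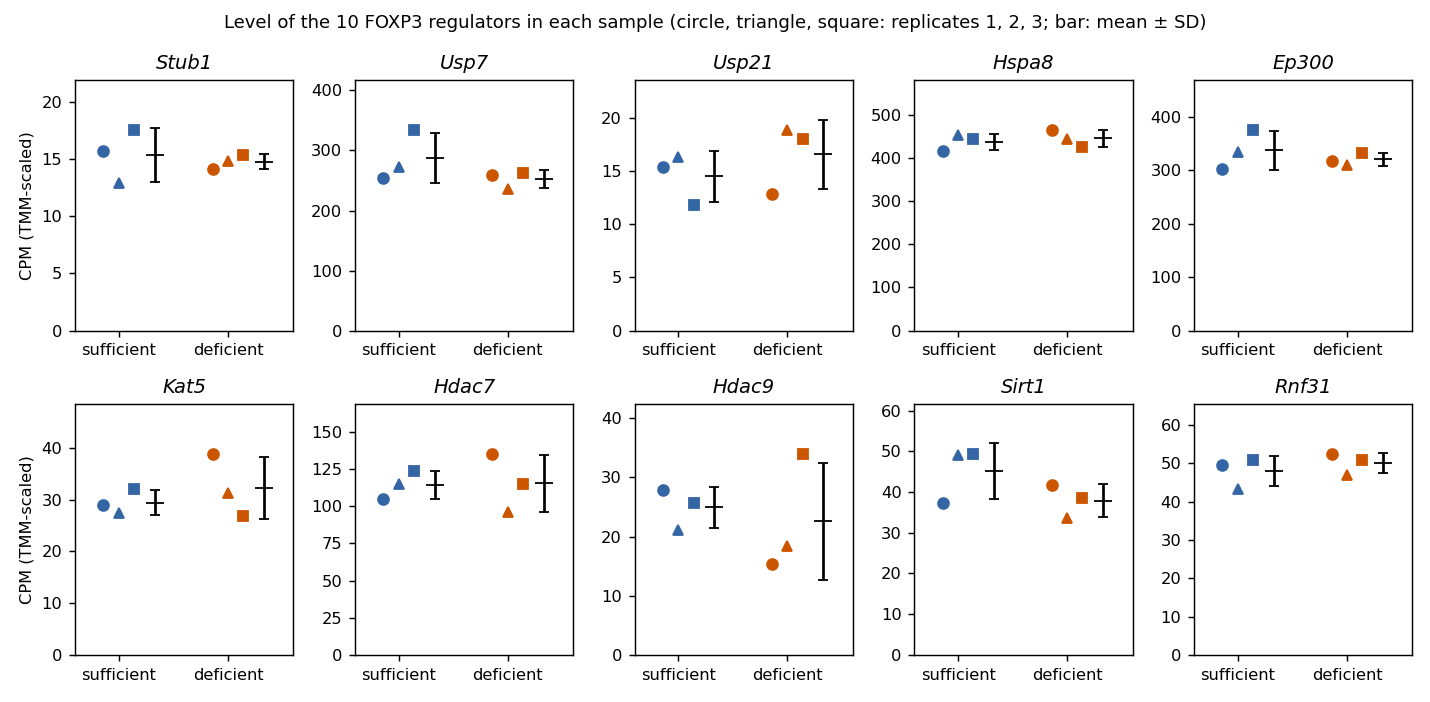
Level in CPM (vertical axes, each from 0) of the 10 regulators in every sample, with OGT-sufficient in blue and OGT-deficient in orange, replicates as circle, triangle and square, and the mean ± SD (n = 3) as a bar. In every panel the groups overlap, and *Hdac9* shows the widest scatter, with OGT-deficient values from 15.4 to 33.9 CPM.

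OGT-sufficient replicate 3 was the highest of the 6 samples for 4 of the 10 genes, and for 27.4% of all tested genes. OGT-deficient replicate 1 was highest for another 4, and for 15.2% of all tested genes. Without OGT-sufficient replicate 3, 3 of the 10 log2 fold changes were below 0 and 7 above, and none passed an unadjusted p of 0.05 in edgeR's quasi-likelihood test. The median CV within a genotype was 12.4% over the 10 genes, 12.1% over the 126 tested genes of related families and complexes, and 16.3% over all tested genes. As a multiple of the counting error, the spread between samples was largest for *Usp7*, at 11.6% against 3.11%, and then for *Hdac9*. In percentage points *Hdac9* was furthest above the counting error, at 31.3% against 10.5%, whereas *Stub1* and *Rnf31* did not exceed it.

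**Figure D3:**
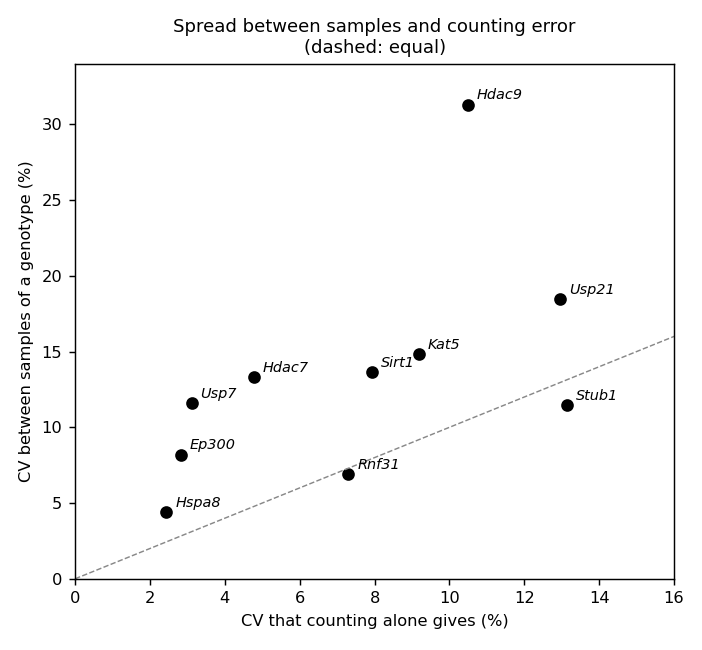
CV between samples of a genotype (vertical axis, percent) against the CV that counting alone gives (horizontal axis, percent), with 1 point per gene and a dashed line where they are equal. *Stub1* and *Rnf31* lie below the line, the other regulators above it, and *Hdac9* stands out at 31.3%.

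Divided by exon length, the levels of the 10 genes spread over a 63.3-fold range. *Hspa8* led with 102.6 CPM per kb of exon as the mean over the 6 samples, followed by *Usp7* at 34.7, *Ep300* at 23.0 and *Hdac7* at 17.0 CPM per kb. *Kat5* (8.80), *Rnf31* (8.55), *Sirt1* (7.80) and *Stub1* (5.89 CPM per kb) formed a group in which neighbours overlapped in their ranges over the samples. *Usp21* with 3.27 and *Hdac9* with 1.62 CPM per kb were the lowest, and neither range touched that of its neighbours. Per kb of exon, the deubiquitinase *Usp7* was thus higher and the deubiquitinase *Usp21* lower than the ligase *Stub1* in each of the 6 samples. In CPM, without division by length, *Usp21* was above *Stub1* in OGT-sufficient replicate 2 and OGT-deficient replicates 2 and 3, and below it in the others. Against the deacetylase *Sirt1*, *Ep300* was higher per kb in each sample, whereas *Kat5* was lower in OGT-sufficient replicates 2 and 3 and higher in the other samples. In CPM *Kat5* was below *Sirt1* in each sample. Exon length here is the union of all annotated exons (14.665 kb for *Hdac9*, 4.756 kb for *Usp21*, 2.561 kb for *Stub1*), which understates a gene that uses few of them.

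**Figure D4:**
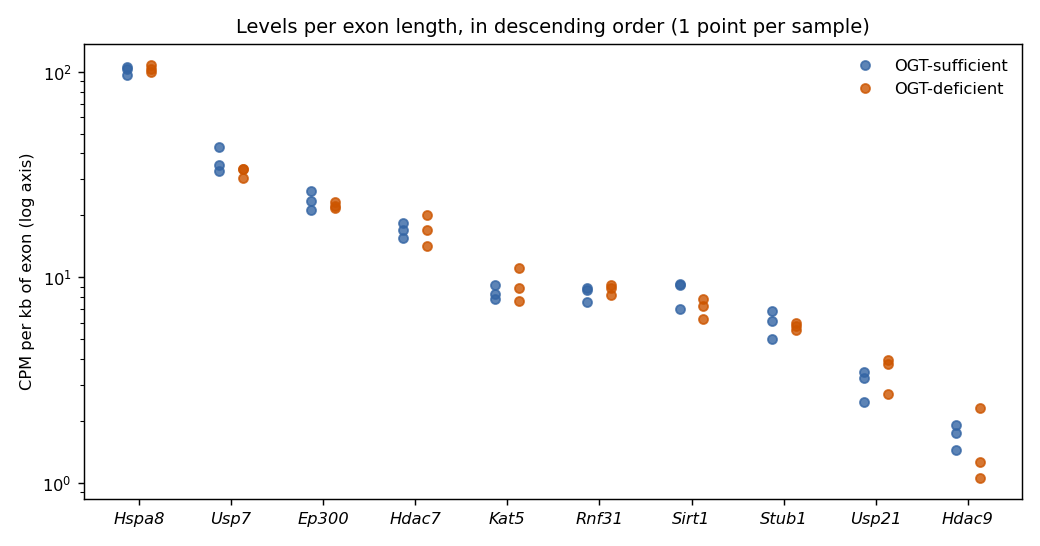
Level per kb of exon (vertical axis, CPM per kb, log scale) of the 10 regulators in descending order, with 1 point per sample, OGT-sufficient in blue and OGT-deficient in orange. *Hspa8* lies near 103 and *Hdac9* near 1.62 CPM per kb, and in no gene do the genotypes separate.

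Ratios within a sample do not depend on the library scaling. Those given here are ratios of reads without division by exon length, so they are not ratios of transcript number. Reads of *Usp7* exceeded those of *Stub1* by 16.2, 21.2 and 19.0 times in OGT-sufficient and by 18.4, 15.8 and 17.0 times in OGT-deficient replicates 1, 2 and 3, with means of 18.8 ± 2.47 and 17.1 ± 1.29 (SD, n = 3 each). The ratio of *Hspa8* to *Stub1*, chaperone to ligase, was 28.9 ± 5.39 and 30.2 ± 2.63, and that of *Usp7* to *Usp21* 20.5 ± 6.78 and 15.7 ± 4.03. *Ep300* reads exceeded *Sirt1* reads by 7.51 ± 0.668 times in OGT-sufficient and 8.49 ± 0.822 times in OGT-deficient cells. The ratio of *Hdac7* to *Hdac9* was 4.65 ± 0.843 and 5.79 ± 2.73. The samples of the groups overlapped in all 5 ratios.

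*Foxp3*, which encodes the shared substrate, had 229, 299 and 189 CPM in OGT-sufficient and 283, 249 and 291 CPM in OGT-deficient replicates 1, 2 and 3. The groups overlapped, and OGT-sufficient replicate 3 had the lowest value. *Foxp3* shares exon bases on the opposite strand with *Ccdc22*, which had a log2 fold change of 0.41 (SE 0.19, adjusted p = 0.703) without overlap between the groups. The same holds for *Ppp1r3f*, which had 0.50 (SE 0.23, adjusted p = 0.709) with groups that overlapped. *Foxp3* was among the genes sharing exons with others, and their part in its value was not tested. It also shares 853 exon bases with *Flicr* on the same strand, which was not among the counted genes. The log2 fold change of *Foxp3* itself was 0.20 (SE 0.17, adjusted p = 0.840), with an interval of 0.881-fold to 1.496-fold. The 10 Treg cell markers, *Foxp3* among them, had a median log2 fold change of 0.19.

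Genes related to the 10 by family or complex gave few differences as well. Of 132 such genes in 8 lists, 126 were tested and 0 passed an FDR of 0.1. At an unadjusted p under 0.05 there were 7 in edgeR's quasi-likelihood test, 3 lower and 4 higher in OGT-deficient cells, where 4.01% and 3.09% of all tested genes were, and DESeq2 and the exact test each gave 6. Their median log2 fold change was -0.04, and 16 of the 126 had groups without overlap, which is close to the 13.2% over all tested genes. The lists were chosen with earlier results of these data known.

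Among 16 tested enzymes that modify FOXP3 other than the 10, log2 fold changes were below 0 in 8 and above in 8 (median 0.03), and 1 had an unadjusted p under 0.05. This was *Pim1*, a serine kinase, with 109, 126 and 93.6 CPM in OGT-sufficient and 142, 138 and 141 CPM in OGT-deficient replicates 1, 2 and 3, and a log2 fold change of 0.36 (SE 0.13, adjusted p = 0.577). *Cblb*, a ligase that restrains T-cell activation, had 191 ± 12.8 and 205 ± 17.1 CPM in OGT-sufficient and OGT-deficient cells (SD, n = 3 each). *Traf6*, a ligase of receptor signalling, had 70.9 ± 10.8 and 81.1 ± 7.15 CPM. *Usp22*, a deubiquitinase of the SAGA complex, had 52.6 ± 4.80 and 62.5 ± 8.08 CPM. On the log2 scale these 3 differences were 0.10, 0.19 and 0.25, at adjusted p of 0.877, 0.794 and 0.755 in edgeR's quasi-likelihood test. *Usp44* had 1 to 12 counts per sample and was not tested.

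Of 18 tested ubiquitin ligases of T cells, 10 had log2 fold changes below 0 and 8 above (median -0.02), and 2 had an unadjusted p under 0.05, both lower. *Nedd4*, a HECT-type ligase, had 29.3, 23.9 and 53.2 CPM in OGT-sufficient and 22.1, 17.9 and 13.6 CPM in OGT-deficient replicates 1, 2 and 3. The highest of these was again OGT-sufficient replicate 3, and the log2 fold change of -0.99 (SE 0.31, adjusted p = 0.551) became -0.56 without it. Of 33 tested deubiquitinases, 19 were below 0 and 14 above (median -0.02). *Usp3*, which removes ubiquitin from histones, had 138, 142 and 152 CPM in OGT-sufficient and 191, 189 and 211 CPM in OGT-deficient replicates 1, 2 and 3, a log2 fold change of 0.45 (SE 0.11, adjusted p = 0.348). *Usp33* had 58.7 ± 1.78 and 48.3 ± 2.90 CPM, a log2 fold change of -0.28 (SE 0.12, adjusted p = 0.677).

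Among 21 tested chaperones and co-chaperones of HSP70 and HSP90, 13 were below 0 and 8 above (median -0.04). *Dnajb1*, a J-domain partner of HSP70 that is induced by heat shock, had 79.3, 79.9 and 76.6 CPM in OGT-sufficient and 125, 118 and 97.1 CPM in OGT-deficient replicates 1, 2 and 3. The OGT-sufficient samples were close together and all below the OGT-deficient ones, with a log2 fold change of 0.53 (SE 0.13) that did not pass adjustment (adjusted p = 0.348, edgeR's quasi-likelihood test). *Bag1*, a nucleotide exchange factor of HSP70, had 92.8 ± 8.42 and 113 ± 3.71 CPM, a log2 fold change of 0.29 (SE 0.11, adjusted p = 0.668). The acetylation families held no gene at an unadjusted p under 0.05. The median log2 fold change was -0.06 over 11 tested lysine acetyltransferases, -0.06 over 17 subunits of the TIP60 complex, -0.06 over 8 other histone deacetylases and -0.14 over 5 other sirtuins, where 4 of 5 were below 0.

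**Figure D5:**
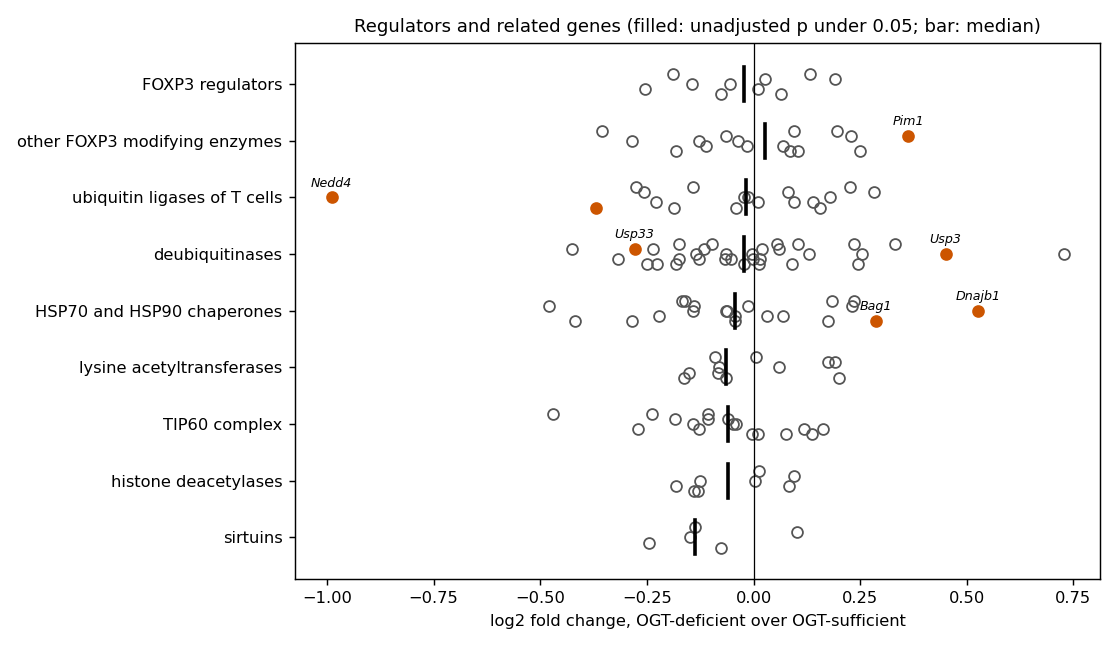
Log2 fold change (horizontal axis, OGT-deficient over OGT-sufficient) of each tested gene in the set of 10 and in 8 related lists, with the median as a bar and genes at an unadjusted p under 0.05 filled, 6 of them named. The 10 regulators lie between -0.25 and 0.19, and the 7 filled genes belong to 4 of the 8 lists.

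Over the 6 samples, the genes whose profile of log2 CPM, centred on its mean, lay closest to that of *Hdac9* were *Zfp516*, *Clcn5* and *Slc25a15*, with root mean square differences of 0.10, 0.12 and 0.12. For *Usp21* they were *Pskh1*, *Adck4* and *Lypla1* (0.046, 0.049 and 0.055), and for *Sirt1* *Cdc25b*, *4921524J17Rik* and *Tmem183a* (0.041, 0.051 and 0.056). These 3 members had the largest SD of log2 CPM over the 6 samples, 0.41, 0.26 and 0.22. The genes named are the nearest of 10949 tested over only 6 samples, and shared regulation with the members was not tested.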

How the data were processed

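Gene expression was measured by paired-end RNA sequencing of sorted YFP+ Treg cells, in 3 OGT-sufficient and 3 OGT-deficient samples grouped by the genotype in their labels. The authors deposited a whole number per gene symbol and sample, under the heading of expression values, and these were treated as raw counts. The submitters' processing notes name Trimmomatic 0.33, FastQC, Bowtie2 2.2.4.0, featureCounts, edgeR and build mm10, whereas the methods of the study name Cuffquant for quantification. The annotation, the strand setting and the handling of shared reads are not given in the sources used here. Columns of the authors' own comparison (p-values, FDR and fold changes) were not used.

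Counts were scaled by TMM and tested in R 4.3.3 with edgeR 4.0.16 (glmQLFit and glmQLFTest), after filterByExpr with min.count set to 10, with Benjamini-Hochberg adjustment over all 10949 genes tested and a threshold of 0.1. Standard errors were derived from each F statistic and its log2 fold change, and the 95% interval follows from them. The median biological coefficient of variation was 0.159. Replicates of a group differed by more than counting error (chi-square per degree of freedom 3.31 to 22.0), so none was an exact copy of another. This cannot show whether any of them came from the same mouse. Coordinates and exon lengths came from GENCODE M21, which is of the same build as mm10 but was not the authors' stated annotation, and promoters from RefSeq.

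The 10 genes and the gene lists were chosen with earlier results of these data known. Named genes were the 10, *Ogt*, *Foxp3*, and, from the related lists, those with an unadjusted p under 0.05 and no overlap between groups, at most 5 a list, with *Crebbp*, *Cblb*, *Traf6*, *Usp22* and *Usp44* whatever their values. One gene that meets this rule is counted but not reported here by name. Genes that overlap a member (*Irf9*, *Jmjd8*, *Rnaseh2c*, *Slc48a1*) were added for that overlap, with *Ccdc22* and *Ppp1r3f* for *Foxp3*, and *Sharpin* and *Rbck1* as partners of *Rnf31* after their values were seen. Likeness was the root mean square difference of centred log2 CPM (pseudocount 0.5) for the 3 members with the largest SD. Alternatives were DESeq2 1.42.0, the exact test of edgeR, scaling by the size factors of DESeq2 or by library size with or without *Rn45s*, testing unfiltered genes or those with 10 counts or more in each sample, a replicate block, the macrophage marker level as a covariate, and leaving out each sample.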

Additional observations from a re-analysis of the deposited data

How the results depend on the processing

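None of the 10 regulators passed an FDR of 0.1 in any of 15 alternative settings, and at an unadjusted p under 0.05 their number was 0 in 14 settings and 1 without OGT-deficient replicate 3 (*Hdac9*), a range of 0 to 1 with a replicate left out. The related genes at an unadjusted p under 0.05 numbered 5 to 10, while 4.13% to 8.15% of all tested genes passed it. *Usp7* and *Sirt1* stayed below 0 and *Usp21* and *Rnf31* above 0 in all 15. With library size only, which moved the median of all genes to -0.06, *Hspa8* was at -0.017 and *Hdac7* at -0.034. With a replicate left out, log2 fold changes ranged from -0.17 to 0.059 for *Stub1*, from -0.0037 to 0.093 for *Hspa8*, from -0.11 to 0.016 for *Ep300*, from -0.017 to 0.28 for *Kat5*, from -0.12 to 0.16 for *Hdac7* and from -0.53 to 0.068 for *Hdac9*. *Ogt* stayed between -1.31 and -0.94 and passed an FDR of 0.1 with DESeq2 (-1.19), edgeR's exact test (-1.21), no low-count filter (-1.15) and the macrophage covariate (-1.11), with adjusted p from 1.6e-05 to 0.764 over the settings. The cause was not tested. Same-numbered samples did not deviate together from their group means (correlations of -0.280, 0.0071 and -0.118). With 3 samples in each group, these values cannot show whether same-numbered samples shared a litter or day, which is not stated. With the replicate block *Usp7* was at -0.18, *Hdac9* at -0.20 and *Ogt* at -1.19, and 0 of the 10 passed. Of the 6 related genes named, *Usp33* kept an unadjusted p under 0.05 in 3 settings and *Bag1* in 7, the other 4 in all 15. Depth limited *Stub1* and *Usp21* most, where counting alone gives a CV of 13.1% and 12.9%.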
